A study of Homo sapiens with 4 samples.

Results

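The 10 genes described here encode the enzymes that make serine and that move its carbon through folate: PHGDH, PSAT1 and PSPH of serine synthesis, SHMT1 and MTHFD1 of the cytosolic folate cycle, and SHMT2, MTHFD2, MTHFD2L, MTHFD1L and ALDH1L2 of the mitochondrial one. They were chosen by name, and each was read from the brightest probe set annotated to that gene alone; all 10 were found among the 18417 genes with such a probe set. Expression was measured on Human Gene 1.0 ST arrays in MiaPaCa2, an established human pancreatic carcinoma line, here a single line with no further genetic change given. Both groups were cultured for 24 h, 2 arrays with vehicle and 2 with LY101-4B at 50 µM, which the series presents as an inhibitor of the E2F cell cycle transcription factors. A protocol text attached to all 4 samples names LY101-4D at 25 µM instead; the titles, agent labels and design text give LY101-4B at 50 µM and were followed. The series calls the 2 samples of a group biological replicates. The labelling text names a FlashTag kit, a kind usually used for small RNA; whether it describes these arrays is unclear. Values are log2 expression units as deposited, and a gene is said to have risen or fallen where the limma adjusted p over 21214 probe sets lay under 0.05.

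Cells make serine from a glycolytic intermediate in 3 steps, and serine hydroxymethyltransferases then pass one of its carbons to tetrahydrofolate, leaving glycine. The folate-bound carbon is oxidised and released as formate in mitochondria, and the cytosol takes up that formate for purine, thymidylate and methionine synthesis. Serine synthesis and the mitochondrial arm are known targets of the stress transcription factor ATF4, and proliferating carcinoma cells commonly draw on them for nucleotides.

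With LY101-4B, mitochondrial and cytosolic folate genes moved in opposite directions where they passed. All 3 serine synthesis genes rose, by 1.52-fold to 4.65-fold, and 3 of the 5 mitochondrial folate genes rose, by 1.45-fold to 8.35-fold, while both cytosolic folate genes fell, by 1.85-fold and 2.05-fold. In all, 8 of the 10 genes passed, against 19.6% of all tested probe sets; 6 rose and 2 fell, against 9.10% and 10.5%, and the median difference was 0.57 log2 units against 0.01 over all probe sets. At 2-fold or more, 3 of the 10 rose and 1 fell, against 1.59% and 1.62% of all probe sets. MTHFD2L and MTHFD1L did not pass. The groups did not overlap for any of the 10 genes, which was also the case for 58.0% of all probe sets. The genes were chosen with earlier results of these arrays known, and the stress response that includes several of them had already been seen to rise, so these counts describe the set and are not independent support for its direction.

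**Figure D1:**
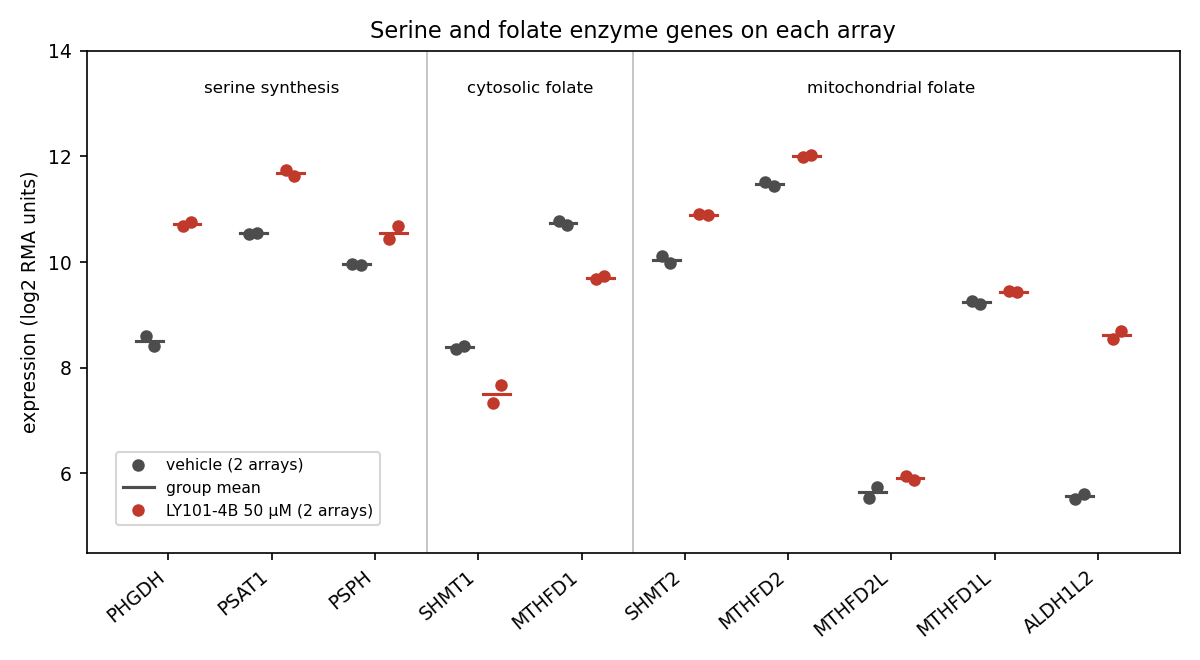
Expression of the 10 enzyme genes on each array, in log2 RMA units on the vertical axis; points are the 2 vehicle arrays (grey) and the 2 LY101-4B arrays (red), short lines are group means. Both red points lie above both grey points for the serine synthesis and mitochondrial genes and below them for SHMT1 and MTHFD1; heights of different genes are not comparable, since each probe set has its own response.

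PHGDH, phosphoglycerate dehydrogenase, catalyses the first step of serine synthesis. It read 8.60 and 8.41 log2 units on the vehicle arrays and 10.68 and 10.77 on the LY101-4B arrays. The 2 treated arrays lay at least 2.08 units above either vehicle array, many times the gap between replicates. The mean rose from 8.50 ± 0.14 to 10.72 ± 0.063 (SD, n = 2 each), a difference of 2.22 ± 0.10 log2 units (SE) or 4.65-fold (95% interval 3.89 to 5.56; limma adjusted p 0.000463). It was the 25th largest rise among the 18417 genes.

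PSAT1, phosphoserine aminotransferase, carries out the following step. It read 10.54 and 10.55 units with vehicle and 11.74 and 11.63 with LY101-4B. Replicates of either group differed by far less than the groups, and the rise was 2.21-fold (1.15 ± 0.09 log2 units, SE; limma adjusted p 0.00137). PSPH, the phosphatase that releases serine, read 9.96 and 9.95 with vehicle and 10.43 and 10.68 with LY101-4B. The treated arrays were both higher but spread more widely than the vehicle pair, and the rise was 1.52-fold (0.60 ± 0.11 log2 units, SE; limma adjusted p 0.0168). This call was lost without vehicle replicate 1 or 2 (adjusted p 0.0882 and 0.0920) and when all 33297 rows were tested (0.0602). In a fit without 1 array the spread rests on fewer arrays. The difference itself stayed at 0.59 to 0.61 without either vehicle array. It moved more without a treated array, to 0.73 without LY101-4B replicate 1 and 0.48 without LY101-4B replicate 2. The measured rise was larger for PHGDH than for PSAT1, with 95% intervals of 1.96 to 2.47 and 0.92 to 1.37 log2 units. That of PSPH ran from 0.33 to 0.88. These intervals hold only the spread between arrays, and each probe set has its own response. Whether the RNAs themselves rose in this order was not tested.

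The 250 bases before the annotated start of PHGDH and PSAT1 are shown because these are the serine synthesis genes that rose by over 2-fold. They come from RefSeq, build GRCh38.p14, at chr1:119711684-119711933 and chr9:78296875-78297124, both on the plus strand, 5′ to 3′ and ending at the base before the start. Of the PHGDH stretch, 163 bases also lie in the annotated long non-coding RNA gene LOC105378937.
PHGDH: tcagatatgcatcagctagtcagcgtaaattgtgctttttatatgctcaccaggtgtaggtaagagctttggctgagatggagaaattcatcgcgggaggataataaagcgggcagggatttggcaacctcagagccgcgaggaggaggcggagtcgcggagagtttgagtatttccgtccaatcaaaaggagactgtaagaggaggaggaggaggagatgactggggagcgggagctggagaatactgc
PSAT1: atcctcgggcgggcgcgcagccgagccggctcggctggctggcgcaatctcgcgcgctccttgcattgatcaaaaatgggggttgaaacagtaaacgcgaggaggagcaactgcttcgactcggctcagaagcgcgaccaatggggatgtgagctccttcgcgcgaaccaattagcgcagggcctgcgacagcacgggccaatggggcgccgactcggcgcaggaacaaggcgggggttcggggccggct
Neither stretch holds capitals, which mark a match to 1 of 4 motifs searched on both strands: TGATGNAA (the core of the C/EBP-ATF element that ATF4 can bind), TTTNNCGC (an E2F-type site), CACGTG (an E-box, which MYC can bind) and TGACNNNGC (an antioxidant element, which NRF2 can bind). Absence of a match says only that these letters are not in this window.

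SHMT1, the cytosolic serine hydroxymethyltransferase, read 8.36 and 8.42 units with vehicle and 7.34 and 7.68 with LY101-4B. Both treated arrays lay below both vehicle arrays, by at least 0.69 units, although they differed from each other by more than the vehicle pair did. The fall was 1.85-fold (-0.89 ± 0.13 log2 units, SE; limma adjusted p 0.00814). MTHFD1, the trifunctional cytosolic enzyme that loads formate onto folate and interconverts the carrier's oxidation states, read 10.78 and 10.70 with vehicle and 9.67 and 9.73 with LY101-4B. Here the replicates were close in both groups and the fall was 2.05-fold, from 10.74 ± 0.056 to 9.70 ± 0.045 (SD, n = 2 each; -1.04 ± 0.09 log2 units, SE; limma adjusted p 0.00173). Among the 18417 genes, MTHFD1 had the 295th and SHMT1 the 419th largest fall. Each kept its call in all 12 alternative settings, with differences of -1.10 to -0.94 for MTHFD1 and -1.05 to -0.72 for SHMT1.

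The corresponding stretches of the genes that fell lie at chr17:18363551-18363800 on the minus strand for SHMT1 and chr14:64388103-64388352 on the plus strand for MTHFD1, again from RefSeq, GRCh38.p14.
SHMT1: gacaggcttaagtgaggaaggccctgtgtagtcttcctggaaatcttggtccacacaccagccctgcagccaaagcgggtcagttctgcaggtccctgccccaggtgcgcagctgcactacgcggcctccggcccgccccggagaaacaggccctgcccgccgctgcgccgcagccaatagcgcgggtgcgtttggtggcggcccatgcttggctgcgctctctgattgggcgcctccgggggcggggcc
MTHFD1: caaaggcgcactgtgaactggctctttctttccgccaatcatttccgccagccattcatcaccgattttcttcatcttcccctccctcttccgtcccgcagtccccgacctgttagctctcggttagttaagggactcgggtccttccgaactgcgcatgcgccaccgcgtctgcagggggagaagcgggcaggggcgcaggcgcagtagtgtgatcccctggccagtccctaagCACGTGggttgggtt
The capitals in MTHFD1 mark an E-box whose first base lies 15 bases before the start; SHMT1 holds none of the 4 motifs.

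SHMT2, the mitochondrial counterpart of SHMT1, read 10.11 and 9.98 units with vehicle and 10.91 and 10.89 with LY101-4B. The treated pair was nearly identical and lay at least 0.78 above either vehicle array. The rise was 1.81-fold (0.85 ± 0.09 log2 units, SE; limma adjusted p 0.00308), and SHMT2 had the 426th largest rise.

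MTHFD2, the mitochondrial dehydrogenase and cyclohydrolase of proliferating cells, read 11.51 and 11.43 units with vehicle and 11.99 and 12.02 with LY101-4B. The groups were separate by 0.48 units, and the rise was 1.45-fold (0.54 ± 0.09 log2 units, SE; limma adjusted p 0.0110). The call was lost without vehicle replicate 1 or 2 (adjusted p 0.0684 and 0.101), where the difference was 0.58 and 0.50. Its paralogue MTHFD2L, which has the same activities, read 5.54 and 5.75 with vehicle and 5.96 and 5.87 with LY101-4B. The vehicle arrays of MTHFD2L differed by more than the gap of 0.12 between the groups, and its difference of 0.27 ± 0.11 log2 units (SE; limma adjusted p 0.148) did not pass; the 95% interval ran from 0.01 to 0.54.

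MTHFD1L, which releases formate from mitochondrial folate, read 9.27 and 9.20 units with vehicle and 9.45 and 9.43 with LY101-4B. The treated arrays were both slightly higher, but the difference of 0.20 ± 0.09 log2 units (SE; limma adjusted p 0.177) did not pass. Its 95% interval in fold, 0.991 to 1.33, leaves out changes as large as those of SHMT2. MTHFD1L and MTHFD2L passed in none of the alternatives run, 12 for MTHFD1L and 11 for MTHFD2L, which lay outside the brighter 50% of probe sets.

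ALDH1L2, which oxidises the formyl group on mitochondrial folate to carbon dioxide with formation of NADPH, changed most. It read 5.52 and 5.61 units with vehicle and 8.55 and 8.70 with LY101-4B, so the treated arrays lay at least 2.94 units above either vehicle array. The mean rose from 5.57 ± 0.067 to 8.63 ± 0.11 (SD, n = 2 each), by 3.06 ± 0.10 log2 units (SE; limma adjusted p 0.000385), or 8.35-fold with a 95% interval of 7.05 to 9.88. It was the 8th largest rise among the 18417 genes. Its vehicle values lay below the lowest array median of 5.88. With no detection calls at hand, whether they or the MTHFD2L values exceeded background is unknown, and compression at low signal would make such a fold too small.

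Among the 7 members with a promoter window in the RefSeq table, 11 windows in all, TGATGNAA occurred in MTHFD1L alone. It stood in 3 of the 4 windows of that gene, which overlap and hold the same site, compared with 3.62% of all 35116 windows. Each window spans 300 bases, 250 before the start and 50 after it, and so is longer than the stretches shown above. The site and its flanks at chr6:150866346-150866375, plus strand, are shown because the gene that holds the element did not pass the test.
MTHFD1L: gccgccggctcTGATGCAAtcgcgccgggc
The capitals mark the element, which begins 90 and 129 bases before 2 of the annotated starts and 25 bases into the transcript from another. CACGTG was found in MTHFD1 and MTHFD1L (7.26% of all windows), and in MTHFD1L it does not overlap the element above. TGACNNNGC was found in MTHFD2 and MTHFD2L just after the start (13.3%), and TTTNNCGC in no member (6.89%). PSPH, SHMT2 and ALDH1L2 had no window there.

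**Figure D2:**
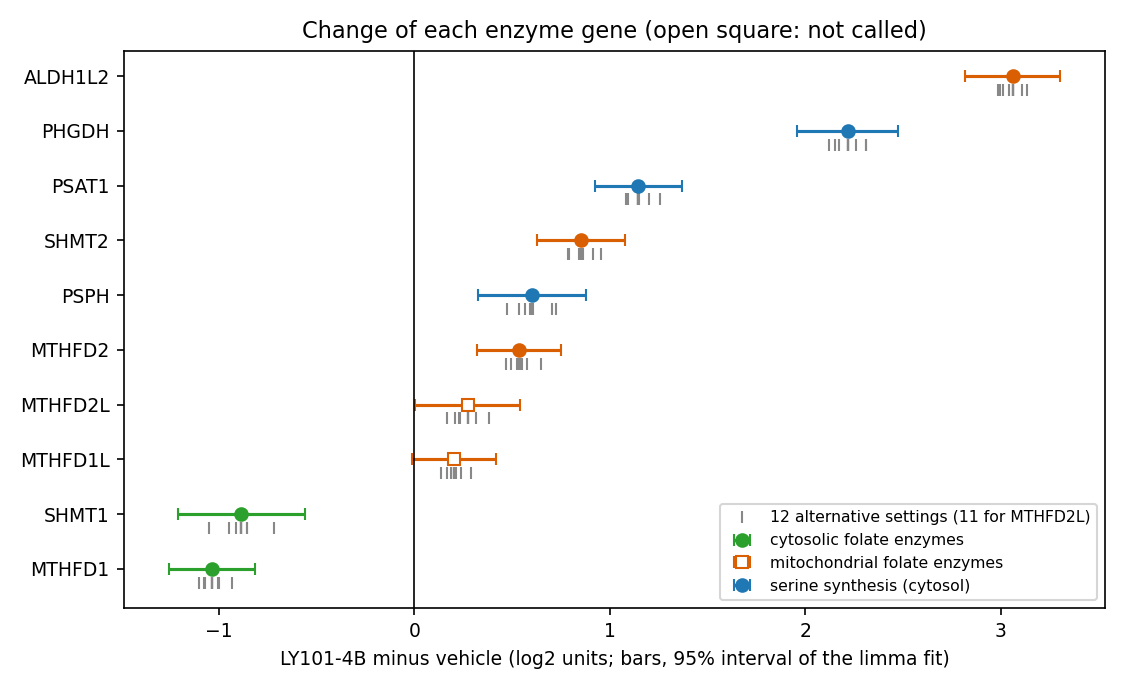
Difference between LY101-4B and vehicle for each enzyme gene in log2 units, with the 95% interval of the limma fit; filled circles passed the test, open squares did not, and grey ticks are the differences under the alternative settings. The values run from -1.04 for MTHFD1 to 3.06 for ALDH1L2, the cytosolic folate genes are the only ones below 0, and no alternative moved a gene across 0.

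Genes of the same step in different compartments could be set against each other on each array. The log2 difference SHMT2 minus SHMT1 was 1.75 and 1.56 on the vehicle arrays and 3.57 and 3.21 on the LY101-4B arrays, a shift of 1.74 units towards the mitochondrial gene. MTHFD1L minus MTHFD1 moved from -1.51 and -1.50 to -0.22 and -0.31, a shift of 1.24 units, and most of it came from the fall of MTHFD1. ALDH1L2 minus its cytosolic paralogue ALDH1L1 moved from 0.14 and 0.31 to 3.20 and 3.14, a shift of 2.95. ALDH1L1 itself differed by 0.11 ± 0.11 log2 units (SE; limma adjusted p 0.555), but it read 5.31 to 5.56 on the 4 arrays, below the lowest array median of 5.88, so its values may not exceed background and this shift is not a comparison of compartments. Within the mitochondrion, MTHFD2 minus MTHFD2L read 5.97 and 5.68 with vehicle and 6.03 and 6.14 with LY101-4B, a shift of 0.26 that was smaller than the gap between the vehicle arrays. For all 4 pairs the exact 2-sided permutation p was 0.333, the smallest that 2 arrays against 2 can give, so this test cannot pass 0.05. The limma calls of SHMT2 and SHMT1 have opposite signs, with 95% intervals of 0.63 to 1.08 and -1.21 to -0.56.

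**Figure D3:**
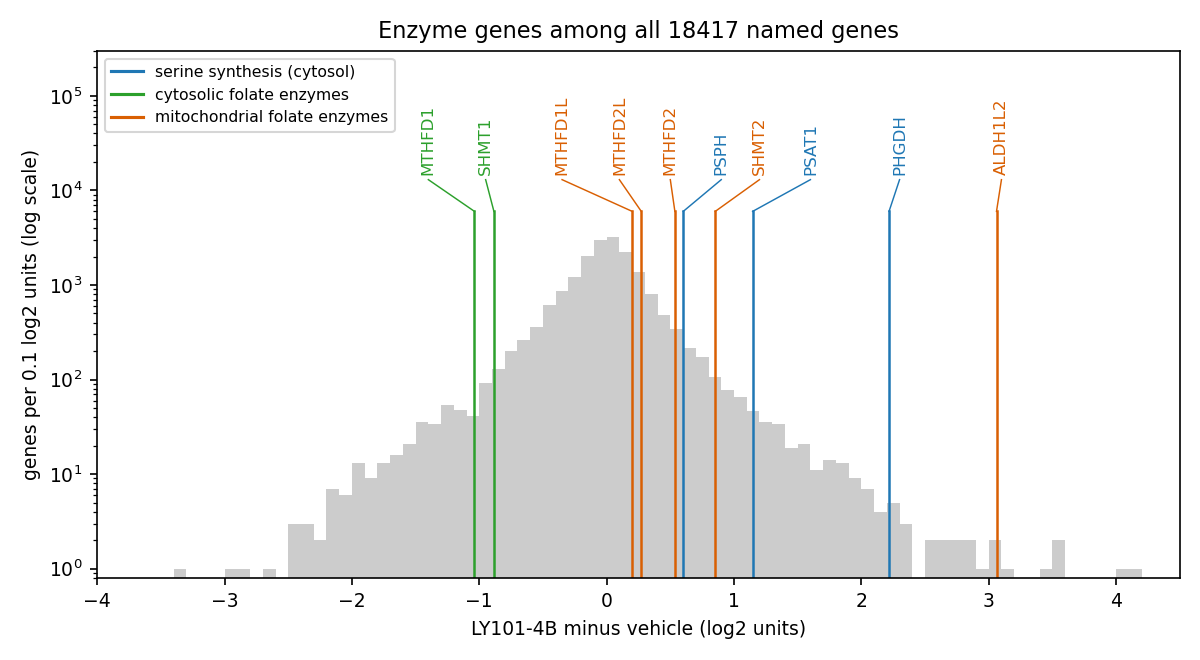
Histogram of the difference between LY101-4B and vehicle over all 18417 named genes, in bins of 0.1 log2 units with a log scale on the vertical axis; vertical lines mark the 10 enzyme genes, coloured by compartment. ALDH1L2 (3.06) and PHGDH (2.22) lie in the sparse right tail, MTHFD1 (-1.04) and SHMT1 (-0.89) on the left slope, and MTHFD1L and MTHFD2L within the central mass.

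Some members have more than 1 probe set or close genomic copies. The other probe sets of PSPH and MTHFD2 rose as well, by 1.44-fold and 1.48-fold (limma adjusted p 0.0111 and 0.00840). Each carries the same transcript accessions as the probe set used, and by name the RefSeq table lists 7 pseudogenes of MTHFD2, 4 of PSAT1 and 1 each of PSPH, SHMT1 and MTHFD1, so signal from such copies cannot be told apart from the gene's own. A further probe set shared by PHGDH and another gene, and 4 shared by MTHFD1L and other genes, were not used.

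By the root mean square distance over the 4 arrays, after centring each gene on its own mean, the genes closest to ALDH1L2 were NMRAL2P (0.050 log2 units), SLC7A11 (0.080) and HKDC1 (0.089). Those closest to MTHFD1 were the ribosome assembly gene RRS1 (0.013), the histone gene H2AC20 (0.018) and POLD1, a DNA polymerase subunit gene (0.022). With 2 groups of 2 arrays this likeness mostly reflects the size of the difference.

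Around these enzymes, 41 of 49 listed genes of folate, glycine, methionine and serine handling were measured, of which 6 rose and 9 fell, and their median difference was 0.01 log2 units. Over all tested probe sets 9.10% rose, 10.5% fell and 19.6% passed in either direction; most of the counts by list below rest on 1 to 3 genes, and nothing particular to a list is read from them. None of the 8 measured genes of folate uptake, reduction and storage rose. GGH, which trims the polyglutamate tail of folates, fell 1.75-fold and SLC19A1, the reduced folate carrier, 1.52-fold (limma adjusted p 0.00959 and 0.0218). Among 6 other folate-dependent enzymes 2 fell and 0 rose. TYMS, thymidylate synthase, read 11.36 and 11.45 with vehicle and 9.76 and 9.80 with LY101-4B, a 3.08-fold fall (limma adjusted p 0.000650), and ATIC of purine synthesis fell 1.28-fold (0.0354).

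Of 5 measured glycine cleavage and choline-derived glycine genes, 1 rose and 2 fell. CHDH, choline dehydrogenase, fell 1.79-fold, DLD, a shared dehydrogenase subunit, fell 1.34-fold, and DMGDH rose 1.44-fold (limma adjusted p 0.00618, 0.0385 and 0.0209). DMGDH read 4.47 to 5.13 on the 4 arrays and CHDH 5.48 and 5.72 with LY101-4B, all below the lowest array median, so these folds are uncertain. In the methionine cycle and transsulfuration list 2 of 12 rose and 1 fell. CTH, which makes cysteine from cystathionine, read 7.62 and 7.58 with vehicle and 10.16 and 10.23 with LY101-4B, a 6.04-fold rise (limma adjusted p 0.000395). AHCYL2 rose 1.48-fold, and MTR, methionine synthase, which takes its methyl group from folate, fell 1.33-fold (limma adjusted p 0.00918 and 0.0496).

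Of 10 measured genes of serine transport and use, 3 rose and 2 fell. SLC1A4, a neutral amino acid transporter that carries serine, read 6.11 and 6.03 with vehicle and 8.80 and 8.71 with LY101-4B, a 6.44-fold rise (limma adjusted p 0.000395). SLC1A5, the glutamine transporter, rose 1.87-fold (0.91 log2 units; limma adjusted p 0.00202), or by 0.46 log2 units as the mean of its probe sets. SPTLC2, a subunit of the enzyme that condenses serine into sphingolipids, rose 1.42-fold, while SFXN1, the mitochondrial serine importer, fell 1.44-fold (limma adjusted p 0.0148 and 0.0134). Of 3 transcription factor genes known to act on the pathway, ATF4 read 10.69 and 10.70 with vehicle and 11.69 and 11.70 with LY101-4B, a 2.01-fold rise (limma adjusted p 0.00162). This is a difference of 1.01 log2 units, or 0.86 as the mean of the ATF4 probe sets. NFE2L2, which encodes NRF2, rose 1.36-fold (limma adjusted p 0.0265), and MYC differed by -0.10 log2 units (limma adjusted p 0.498).

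Of the 16 neighbouring genes named above as risen or fallen, GGH, TYMS, CHDH, CTH, SLC1A4, SLC1A5 and ATF4 kept their call in every alternative run for them. Without vehicle replicate 1 or vehicle replicate 2, in turn, the calls of ATIC, DLD, DMGDH, MTR, AHCYL2, SFXN1, SPTLC2 and NFE2L2 were lost. That of SLC19A1 was lost without vehicle replicate 2, those of SLC19A1, ATIC, DLD, DMGDH and MTR without LY101-4B replicate 1, and those of ATIC and NFE2L2 without LY101-4B replicate 2. The limma adjusted p of these lost calls ranged from 0.0526 for DMGDH to 0.235 for MTR. With all 33297 rows tested, the calls of SLC19A1, ATIC, DMGDH, DLD, MTR, SPTLC2 and NFE2L2 were lost (adjusted p 0.0523 to 0.121). Those of ATIC (0.0915) and DLD (0.0639) were also lost under cyclic loess, and that of MTR (0.0524) with a robust prior. The total of 17 called genes, ATF4 and NFE2L2 included, fell to 8 without vehicle replicate 1, 7 without vehicle replicate 2 and 11 without LY101-4B replicate 1.

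**Figure D4:**
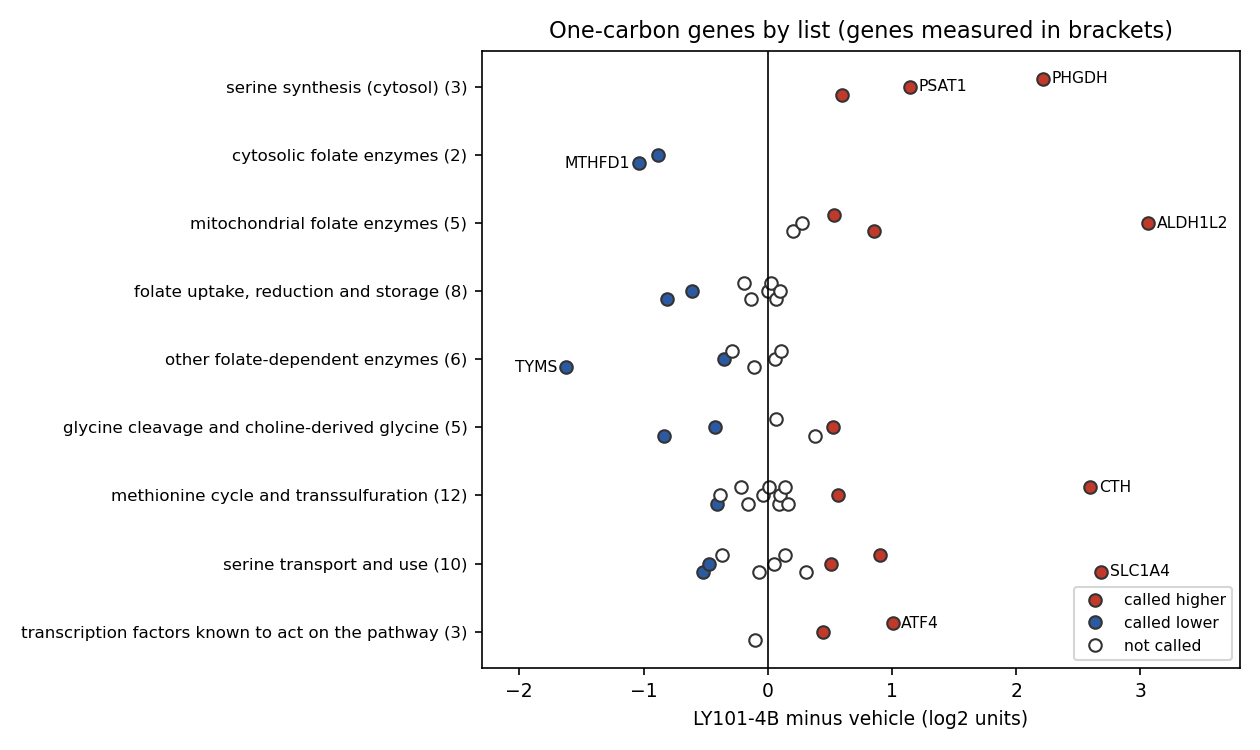
Difference between LY101-4B and vehicle for each measured gene in log2 units, 1 row per list with the number of genes measured; red points rose, blue points fell and open points did not pass, and genes that passed with a change of over 1 unit are named. The large rises are ALDH1L2, SLC1A4, CTH and PHGDH, and the largest fall is that of TYMS (-1.62).

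Over all tested probe sets 1930 rose (9.10%) and 2236 fell (10.5%), 19.6% in either direction, so 46.3% of calls were rises. With arrays centred on their medians this share of rises was 35.9%, and each of the 8 member calls stood under that scaling too. Replicate arrays correlated at r = 0.994 or more across probe sets, and arrays of different groups at 0.978 to 0.981. Of 6 markers of the line, KRT8 and KRT18, keratins of simple epithelia, fell by 0.84 and 0.57 log2 units. Both read 11.86 or more on every array, as did VIM. KRT19 read 9.06 to 9.28, whereas KRT7 read only 5.81 to 6.10, near the array medians, and EPCAM between 3.77 and 4.12. In the fibroblast list 1 of 6 markers rose and 1 fell, with array means over the list of 5.84 to 5.97 in vehicle and 5.93 to 5.97 in LY101-4B. These means hide a wide range. COL1A2, the marker that rose, read 9.87 and 9.92 with vehicle and 10.40 and 10.33 with LY101-4B. COL3A1 fell by 0.54 log2 units, and DCN and LUM read 3.62 or less on every array. In the leukocyte list 1 of 5 fell, LYZ by 1.22 log2 units, with array means of 5.20 to 5.23 and 4.98 to 5.01. None of 4 endothelial markers passed by limma (means 4.77 to 4.84 and 4.69 to 4.79). The counts of called markers are small beside the 19.6% of all probe sets, and nothing particular to a list is read from them. The part of the marker shifts in the results above was not tested. In bulk RNA, fewer cells that express a gene and less RNA per cell cannot be told apart.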

How the data were processed

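Per the submitters' processing notes, the authors made the deposited log2 values of the 4 Human Gene 1.0 ST arrays with RMA, which corrects background, equalises the arrays' distributions and summarises probe sets; its version and any filter were not stated. A change is therefore relative to most other probe sets, and low signal is compressed. Column medians lay between 5.88 and 5.97. The platform annotation gave 1 symbol to 19460 of 33297 rows, several to 1754 and none to 12083. The 21214 rows with a symbol were fitted with limma 3.58.1 in R 4.3.3 (lmFit, eBayes, treatment as the sole term, 2 residual degrees of freedom), with Benjamini-Hochberg adjustment over all of them. Array number limits the precision. For a gene with several probe sets the brightest stood for it. In 10 simulated data sets of this comparison, each with 200 of 21214 probe sets changed, the fit recovered 2.4% of changes of 0.5 log2 units. It recovered 78.2% of changes of 1 and 98.2% of 2, and 4.72% of calls were false. In the data themselves 4166 probe sets were called, so the adjusted threshold was looser there. These recovery rates therefore do not carry over to the data. The members and lists were chosen with earlier results of these data known. Named besides the members were, from each list, up to 4 called genes with the largest change, and the 3 genes closest to the members with the largest rise and fall. ALDH1L1, MYC and the markers were named outside this rule. Listed genes without a probe set of their own (8 of 52) are not analysed here. Alternatives were cyclic loess, median centring, the brighter 50% of probe sets, all rows, an intensity trend, a robust prior, each array left out, a replicate block and the mean of a gene's probe sets.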

Additional observations from a re-analysis of the deposited data

How the results depend on the processing

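The direction of all 10 enzyme genes was kept in every alternative run for them, and 8 of the 10 kept their side of the threshold throughout; PSPH and MTHFD2 did not, as given above. The count of called enzyme genes was 8 under all but 3 settings. It was 7 with all 33297 rows, and between 6 and 8 when single arrays were left out. The other pathway genes called, the transcription factor genes included, numbered 17; they numbered 9 with all rows (5 higher, 4 lower) and between 7 and 18 without single arrays (4 to 8 higher, 3 to 10 lower). Over all probe sets, 2433 were called with all rows (1162 higher, 1271 lower), and from 1610 to 4366 without single arrays (755 to 1899 higher, 811 to 2467 lower). A fit with fewer arrays has 1 residual degree of freedom, and one with all rows adjusts over more tests. The shift of SHMT2 against SHMT1 ranged from 1.56 to 1.91 without single arrays, and that of MTHFD2 against MTHFD2L from 0.12 to 0.41. Replicate numbers are shared by the groups, but nothing in the labels says that they pair the cultures, and 2 pairs cannot show it (correlation of deviations 0.116). With the replicate number as a block, 8 enzyme genes, 17 other pathway genes and 4336 probe sets (2024 higher, 2312 lower) were called.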
